A study of Mus musculus with 27 samples.

Results

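Astrocytes with high Gfap were taken from single-nucleus RNA sequencing of mouse hippocampus as nuclei that passed an astrocyte rule and held at least 2 unique molecular identifiers (UMIs, counts of individual captured RNA molecules) of Gfap. The astrocyte rule asked for 200 to 4000 detected genes, at most 5% mitochondrial UMIs, at least 4 of 8 astrocyte genes detected (Slc1a3, Bmpr1b, Atp13a4, Fgfr3, Gja1, Ntsr2, Grin2c and Acsbg1), at most 1 UMI of Slc17a7, Gad1 and Gad2 together and at most 1 UMI of Mog and Mag together. Of 241938 nuclear barcodes, 221281 passed the gene and mitochondrial limits, 25374 were astrocytes and 5585 were astrocytes with high Gfap, which is 22.01% of the astrocytes. The other 19789 astrocytes, with 0 or 1 Gfap UMI, are called astrocytes with low Gfap. The class is therefore defined by Gfap counts, and values of Gfap, of the 8 astrocyte genes and of the 5 excluded neuronal and oligodendrocyte genes are given only as a description.

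The 27 mice, with 1 library each, were 8 to 10 months old and fell into 6 genotype groups. The 5 mice of the first group were Cgas+/+ without the tau transgene (3 males and 2 females), 2 males were Cgas+/- and 2 males were Cgas-/-, both without the transgene. Mice carrying P301S tau, a human tau transgene with a dementia-linked mutation under the mouse prion promoter, were Cgas+/+, Cgas+/- or Cgas-/-, with 3 males and 3 females in each of these 3 groups. Cgas encodes a sensor of cytosolic DNA that starts the interferon response through Sting1, and the Cgas-/- allele is a germline deletion, so any cell type of these mice could carry its effect. The design asks how tau, and tau with fewer Cgas copies, acts on hippocampal cells, and the same comparisons were made here within astrocytes with high Gfap.

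Astrocytes clear glutamate and potassium around synapses, pass water and lipids between blood and neurons, and respond to injury. Gfap encodes the intermediate filament protein that gives fibrous astrocytes their skeleton, and it rises in reactive astrocytes around damage and protein deposits. In the healthy hippocampus it is also carried by astrocytes of white matter, of the brain surface and around vessels, and by radial stem cells of the dentate gyrus. A high Gfap count alone does not separate these kinds of cell.

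Each mouse gave 46 to 520 astrocytes with high Gfap (median 135), and 4700 of them (84.2%) came from the 18 P301S libraries. Library totals ran from 46091490 to 79484316 UMIs, and the summed counts of the class from 157760 to 2649644 UMIs per mouse. Nuclei of the class were deeper than astrocytes with low Gfap in all 27 mice, with median UMI counts per mouse of 2935 to 6260.5 against 2755 to 4467. The label Cgas could not be checked in the class, since Cgas gave 0 UMIs in Cgas+/+ and in Cgas-/- libraries, 7 of 8033069 in P301S Cgas+/+ and 1 of 7095038 in P301S Cgas-/- libraries. In microglia, Cgas stood at 16.2 to 35.9 counts per 1000000 UMIs (CPM) in P301S Cgas+/+ libraries and at 25.9 to 37.9 CPM in libraries labelled P301S Cgas-/-, so these 3' counts were not lower with the labelled deletion, and a tag outside the deleted part would not show it. Gm43049, a noncoding transcript that marks the transgene, was found at 2.72 to 17.4 CPM over all kept nuclei of P301S libraries and at 0 to 0.0762 CPM in the others. Within the class it gave 84 UMIs in 15 of 18 P301S libraries and 0 UMIs in the 9 others, where 3 counts would be 0.943 CPM.

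The markers fixed to check the label were present in the class. Slc1a3, the glutamate transporter GLAST, which is also a gene of the rule, had a median of 3340.5 CPM over the 27 mice, Aqp4, the water channel of astrocyte endfeet, 481 CPM, and Thbs4, a secreted thrombospondin of some fibrous and stem-like astrocytes, 81.1 CPM. Gfap was also counted in cells that should lack it. Of 31353 excitatory neuron nuclei, 9 (0.0287%) held 2 or more Gfap UMIs at a median depth of 10410 UMIs, and of 40451 oligodendrocyte nuclei 35 (0.0865%) did so at a median depth of 1940.5 UMIs. These nuclei were all in P301S libraries, where the oligodendrocyte share was 0 to 0.725%, highest in P301S Cgas+/+ replicate 3 (0.725%), P301S Cgas+/- replicate 4 (0.418%) and its replicate 3 (0.392%), and those without P301S had 0 of 9838, which allows a share of up to 0.0305%. The 3 libraries named also held the highest shares of the class among astrocytes, given below, and the part of this background in those shares was not tested. Markers of excitatory neurons, oligodendrocytes and microglia were below their level over all kept nuclei, although no gene of these lists was at 0, and the medians of fibroblast and of endothelial and mural markers were above it. Without Slc17a7, Mog and Mag, which the rule limits, the summed level of 9 excitatory neuron genes in the class was 350 to 1230 CPM (median 691) against a median of 5707 CPM over all kept nuclei, that of 8 oligodendrocyte genes 103 to 320 CPM (median 163) against 1657 CPM, and that of 11 microglial genes 31.7 to 198 CPM against 251 CPM. The 9 fibroblast genes summed to 59.6 to 264 CPM in the class (median 149; 169 in astrocytes with low Gfap) against 53.7 CPM over all kept nuclei, and the 11 endothelial and mural genes to 74.6 to 206 CPM (median 118 in both classes) against 64.1 CPM. The 11 ependymal genes summed to 13.4 to 345 CPM in the class and 29.2 to 163 CPM in astrocytes with low Gfap. Between P301S and other libraries these sums overlapped, with medians of 608 and 793 CPM for the excitatory, 160 and 212 CPM for the oligodendrocyte, 105 and 77.1 CPM for the microglial, 119 and 171 CPM for the fibroblast, 122 and 118 CPM for the endothelial and mural and 120 and 106 CPM for the ependymal genes. Choroid plexus genes summed to 3.48 to 569 CPM in the class. Of these, 0 of 9 had a higher mean in P301S libraries, as did 2 of 9 oligodendrocyte precursor genes, against 58.0% of all genes. The part of these markers in the results was not tested.

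P301S mice held a larger share of astrocytes with high Gfap. Because deeper nuclei reach 2 Gfap UMIs more easily, every astrocyte was thinned to 1500 UMIs before the share was taken, which left out 297 shallower astrocytes of 25374. In the 5 Cgas+/+ mice the thinned share was 2.31%, 6.45%, 2.89%, 2.37% and 1.31% of astrocytes. In the 6 P301S Cgas+/+ mice it was 25.4%, 6.39%, 38.5%, 8.73%, 16.8% and 10.8%. The P301S Cgas+/+ shares ranged more widely, and 5 of the 6 lay above every Cgas+/+ value, replicate 2 being the exception. The difference was 14.7 percentage points (17.8 ± 12.2% against 3.07 ± 1.98%, mean ± SD, n = 6 and 5; exact two-sided permutation test over mice, p = 0.0152, 0.0404 after Benjamini-Hochberg adjustment over 8 tests). Without thinning the shares were 17.5 to 65.5% and 4.13 to 14.9%, and the groups did not overlap. Within libraries of software version 3.1.0 the difference was 16.5 points (4 against 3 mice, exact permutation p = 0.0857) and within version 3.0.2 it was 11.5 points (2 against 2 mice, exact permutation p = 0.667, where 0.333 is the smallest possible).

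P301S mice with fewer Cgas copies had shares that overlapped those of P301S Cgas+/+ mice. The P301S Cgas+/- mice had thinned shares of 5.39%, 20.8%, 37.0%, 36.7%, 3.79% and 2.02%, and the P301S Cgas-/- mice 15.6%, 17.4%, 4.43%, 8.10%, 21.3% and 3.82%. Every group of P301S mice thus held libraries with low and libraries with high shares, and the groups overlapped. Against P301S Cgas+/+ mice the difference was -5.99 points for P301S Cgas-/- (exact permutation p = 0.344, adjusted 0.551) and -0.134 points for P301S Cgas+/- (exact permutation p = 0.989, adjusted 0.989), both within the spread between mice. Within software versions, where all 3.0.2 libraries came from males, the signs were mixed. The P301S Cgas-/- difference was 0.598 points in the 3.0.2 and -9.28 points in the 3.1.0 libraries, and the P301S Cgas+/- difference was -2.79 and 1.20 points. Without the transgene, the 2 Cgas+/- mice had 3.33% and 2.80% and the 2 Cgas-/- mice 4.996% and 5.75%, which lie within the Cgas+/+ range. Over all 18 P301S mice the share was 15.7 ± 12.1% against 3.58 ± 1.74% in the 9 others, 12.1 points higher (exact permutation p = 0.00576, adjusted 0.0386), and 12 of 18 lay above all 9. Within software versions it was 10.9 points higher in 3.0.2 libraries (6 against 6 mice, exact permutation p = 0.0108) and 13.8 points in 3.1.0 libraries (12 against 3 mice, exact permutation p = 0.0945).

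**Figure D1:**
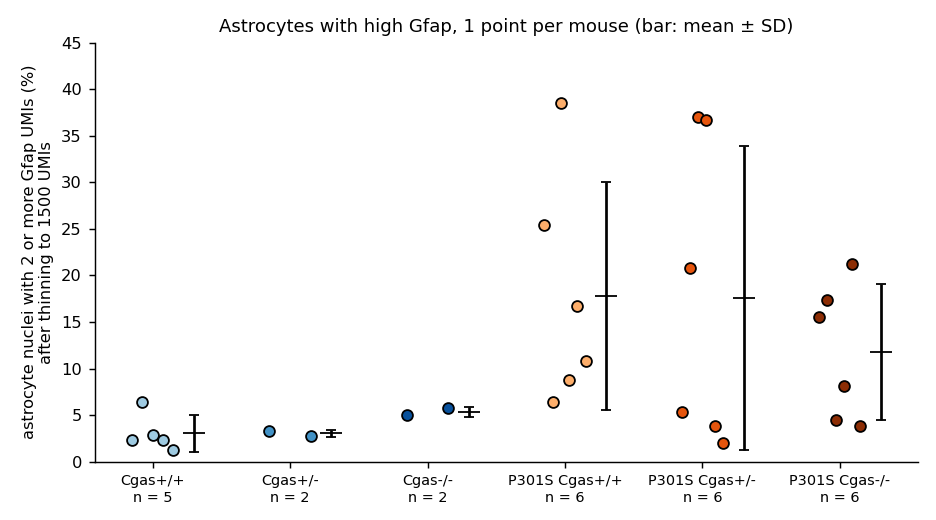
Share of astrocytes with 2 or more Gfap UMIs after thinning to 1500 UMIs, in percent (vertical axis), with 1 point per mouse in the 6 genotype groups and each group's mean ± SD beside them. The Cgas+/+ mice lie between 1.31% and 6.45%, and each P301S group runs from shares within or near that range to at least 21.3%.

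The Gfap level over all astrocytes, high and low together, is not independent of the share and is given as a description. On the log2(CPM + 1) scale it was 2.14 higher in P301S Cgas+/+ than in Cgas+/+ mice (8.88 ± 0.885 against 6.73 ± 0.520, SD) and 1.60 higher in all P301S than in all other mice, with 13 of 18 above all 9. It was 0.59 lower on that scale in P301S Cgas-/- and 0.48 lower in P301S Cgas+/- than in P301S Cgas+/+ mice. Astrocytes as a whole were a smaller part of kept nuclei in P301S mice, at 10.4 ± 3.23% against 14.1 ± 3.22% in the 9 others (exact permutation p = 0.00965, adjusted 0.0386), with 8 of 18 below all 9. Software version was unbalanced here, with 6 of 18 P301S and 6 of 9 other libraries at version 3.0.2. The astrocyte share was not compared within versions. That share moves with the number of other nuclei captured, and fewer nuclei of a type and a changed yield of nuclei cannot be told apart.

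Members also differed in how much Gfap they held. Of the 5585, 1821 had 2 Gfap UMIs, 1638 had 3 or 4 and 2126 had 5 or more, up to 50. Of the astrocytes below the limit, 4180 had 1 UMI and 15609 had none. The share of members with 5 or more Gfap UMIs was 1.56 to 19.6% (median 8.64%) in libraries without P301S and 13.3 to 67.4% (median 35.4%) in P301S libraries. Members of P301S libraries are thus also further above the limit, and comparisons within the class were repeated with members of 2 to 4 Gfap UMIs only.

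Astrocytes with high Gfap differed from the other astrocytes of the same mouse in many genes besides Gfap. Since the split between them is the choice of the class itself, the differences are given as a description and support no statement about the class. Aqp4 stood at 262 to 745 CPM in the class (median 481) and at 132 to 300.98 CPM in astrocytes with low Gfap (median 199), higher in the class in 27 of 27 mice (log2 fold change 1.21 ± 0.07, SE). C4b, a complement component made by reactive astrocytes, stood at 178 to 543 CPM (median 281) against 45.1 to 272 CPM (median 101), also higher in 27 of 27 mice. Cd44, a hyaluronan receptor of fibrous astrocytes, had a median of 62.1 CPM against 6.97 CPM and was higher in 26 of 27. The fibrous and pial astrocyte list, which holds Cd44 and Aqp4, went both ways. Of its 19 tested members 8 were called higher and 6 lower, against 12.6% and 12.4% of all genes, at a median log2 fold change of 0.03. The signalling genes Stat3, a transcription factor downstream of cytokine receptors, and Osmr, the oncostatin M receptor, were higher in 27 of 27 mice each, with medians of 296 against 135 CPM for Stat3 and 108 against 17.4 CPM for Osmr. Angpt1, a vessel-stabilising growth factor, and Igfbp5, an insulin-like growth factor binding protein, were likewise higher in 27 of 27. The 10 genes with the largest fold were Bcl3, Cd44, A2m, Gpnmb, Serpina3n, Met, Ccdc3, Osmr, Aebp1 and Serpinf1. The marker Thbs4, which is no gene of the rule, was less regular, higher in 20 of 27 mice with medians of 81.1 against 49.7 CPM.

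Other genes were lower in the class. Of the transport and coupling list, 8 of 21 tested genes were called lower and 3 higher (Aqp4, Atp1b2 and Grm5), against 12.4% and 12.6% of all genes. The genes that follow include Gabbr2 and Unc13c, which were chosen after their values were seen. Slc6a11, a GABA transporter, stood at 159 to 412 CPM in the class (median 255) and at 309 to 560 CPM in astrocytes with low Gfap (median 391), and was higher in the class in 0 of 27 mice. Slc7a10, the serine transporter of astrocytes, had medians of 137 against 210 CPM, and Trpm3, a cation channel gene, 1937 against 3035 CPM, both again higher in the class in 0 of 27 mice. The same count held for Gli1, the target of sonic hedgehog signalling, at 0 to 17.8 CPM (median 7.17) against 8.95 to 40.2 CPM (median 22.2), for Gabbr2, a GABA-B receptor subunit, at a median of 49.0 against 176 CPM, and for Unc13c, at 21.1 against 85.9 CPM. Slc1a3, which chose the astrocytes, had medians of 3340.5 CPM in the class and 2997 CPM outside it.

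**Figure D2:**
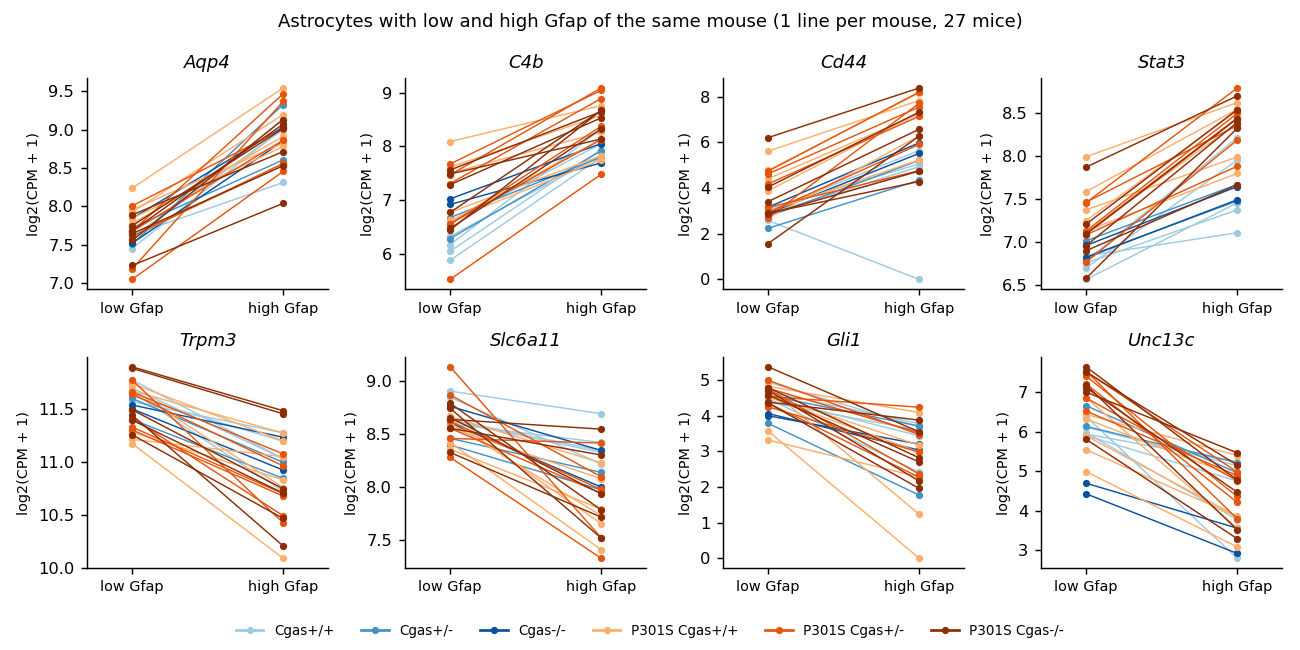
Levels of 8 genes on the log2(CPM + 1) scale (vertical axes) in astrocytes with low and with high Gfap, with a line joining both values of each of the 27 mice, coloured by genotype group. The lines of Aqp4, C4b and Stat3 go up in 27 mice each and those of Cd44 in 26, and those of Trpm3, Slc6a11, Gli1 and Unc13c go down in 27 mice each.

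By gene list, members called at an adjusted p under 0.05 by edgeR's quasi-likelihood test, against 12.6% of all 10784 genes called higher and 12.4% called lower, were 24 higher and 0 lower of 25 tested disease-associated astrocyte genes, 11 and 0 of 13 reactive genes, 29 and 1 of 33 interferon-stimulated genes, and 2 and 13 of 20 homeostatic genes. The median log2 fold change was 0.85, 1.92, 0.69 and -0.33 in these lists and 0.00 over all genes. In all, 2700 of 10784 genes (25%) were called, and 1293 of 5655 (22.9%) when both classes were set after thinning. With the 9 libraries without P301S alone, 226 of 9813 genes were called higher (2.30%) and 148 lower (1.51%), 374 in all, and 11 of 22, 5 of 6 and 2 of 22 members of the first 3 lists were called higher. Of markers of other cell types, 2 of 2 tested ependymal genes were called higher and 6 of 7 tested excitatory neuron genes lower, and their part in the differences was not tested.

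Nuclei were also binned by their Gfap UMIs, the counts that chose the class, without thinning and as a description. Across these bins the levels of several genes moved stepwise with the number of Gfap UMIs. Members were deeper than other astrocytes, as given above, and the part of depth in these steps was not tested. Aqp4 averaged 180 ± 27.4 CPM in nuclei with 0 Gfap UMIs, 274 ± 43.8 with 1, 382 ± 98.3 with 2, 436 ± 116 with 3 or 4 (SD over 27 mice) and 784 ± 381 with 5 or more (25 mice). C4b went from 102 ± 43.5 to 408 ± 85.3 CPM and Cd44 from 10.3 ± 10.7 to 200 ± 120 CPM between the first and the last of these bins. Trpm3 went the other way, from 3170 ± 470 to 1421 ± 585 CPM, and Slc7a10 from 219 ± 39.4 to 106 ± 55.7 CPM, while Slc1a3 averaged 2945 ± 273 and 3098 ± 1064 CPM. Thbs4 did not go one way, with 45.3 ± 20.8, 70.6 ± 36.3, 85.9 ± 64.1, 95.5 ± 76.3 and 76.9 ± 65.4 CPM from the first bin to the last. Levels just below and just above the limit of 2 Gfap UMIs lay between those of the outer bins in Aqp4, C4b, Cd44, Trpm3 and Slc7a10.

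**Figure D3:**
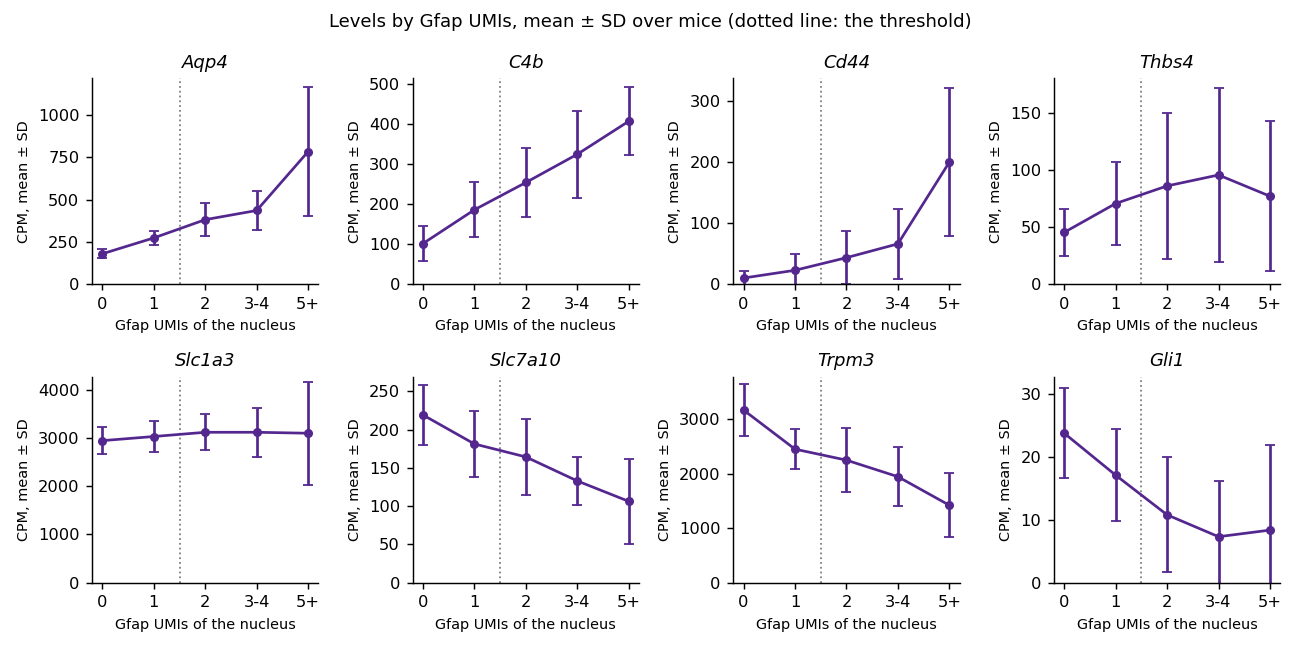
Mean level in CPM over mice (vertical axes, with SD as bars) against the number of Gfap UMIs in a nucleus (horizontal axis, bins of 0, 1, 2, 3 to 4 and 5 or more), as a description. Aqp4 runs from 180 to 784 CPM and Trpm3 from 3170 to 1421 CPM.

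Within the class, 8 of 12 tested reactive genes and 15 of 26 tested interferon-stimulated genes rose in P301S mice, against 3.07% of all genes. A gene low in libraries without P301S could pass the low-count filter through P301S libraries alone. The list counts of this comparison, here and below, are therefore a description. In the comparison of all 18 P301S with all 9 other libraries, with Cgas copies and sex in the model, 366 of 7633 tested genes (4.79%) passed an adjusted p of 0.05 in edgeR's quasi-likelihood test, 234 higher (3.07%) and 132 lower (1.73%). The genes with all 18 P301S libraries above all 9 others numbered 3 (0.0393%), and they were Sbno2, Osmr and Bcl3. With software version as a block, where 6 of the 18 P301S and 6 of the 9 other libraries carry version 3.0.2, 223 passed (149 higher and 74 lower), 209 of them among the 366. This comparison leans on the 2 groups of 2 libraries without the transgene. Without these 4 libraries 5 genes passed (Sbno2, Cd9, Ptpn12, Cnnm2 and Col23a1), with members of 2 to 4 Gfap UMIs only 39 passed, and with each nucleus thinned to 1500 UMIs 129 passed. All 366 genes kept their direction in each of these fits that tested them, and all of the 5 and of the 39 were among the 366. Leaving out Cgas+/- replicate 1 gave 211 calls, replicate 2 of that group 234, Cgas-/- replicate 1 216, its replicate 2 233, and P301S Cgas-/- replicate 5 226, while 589 were called without P301S Cgas+/+ replicate 2.

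Sbno2, a transcriptional coregulator of inflammatory genes (chr10:80056992-80105571, GRCm38), stood at 33.1 to 59.2 CPM (median 45.8) in the 9 libraries without P301S and at 86.0 to 478 CPM (median 311) in the 18 P301S libraries. It was the gene with the smallest p, and its log2 fold change was 2.70 with an SE of 0.30 (edgeR adjusted p = 3.65e-05). Osmr (chr15:6813577-6874969) stood at 25.9 to 58.7 CPM (median 53.3) against 63.1 to 340 CPM (median 187), a log2 fold change of 2.09 ± 0.34 (edgeR adjusted p = 0.00187). Neither gene had overlapping groups. The 10 called genes with the largest fold higher were Bcl3, Gldn, Trim30a, Met, Serpina3n, Gm4951, Oasl2, Serping1, Parp14 and Sbno2, and those lower included Gm44626, Tnc, Insig1, Hmgcs1, Col23a1, Agt, Fam184b, Itga8 and BC055402. Bcl3, a nuclear regulator of NF-kB, gave 3 UMIs in all 9 libraries without P301S together and 1051 in the P301S libraries, a ratio of pooled CPM of 49.7 (95% interval 17.0 to 241, counting error only). Gldn, which encodes the adhesion protein gliomedin, likewise gave 3 UMIs against a pooled level 30.1 times higher (10.3 to 146).

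The cytokine receptor and JAK-STAT list had 7 genes higher and none lower of 20 tested, against 3.07% and 1.73% of all genes. Its median log2 fold change was 0.18 against -0.01 over all genes. Of all its 25 members, 16 (64%) had a higher mean in P301S libraries, close to the 58.0% of all genes. Stat3 stood at 137 to 296 CPM (median 179) without and 203 to 443 CPM (median 340) with P301S, a log2 fold change of 0.74 ± 0.13 (edgeR adjusted p = 0.00206), and 13 of 18 libraries lay above all 9. Il1r1, an interleukin receptor that starts NF-kB signalling, stood at 3.59 to 23.7 CPM (median 12.04) against 11.5 to 84.3 CPM (median 46.3), a log2 fold change of 2.41 ± 0.45 (edgeR adjusted p = 0.00417). Osmr, Stat2, Il13ra1 and Il17ra were among the others that rose, so the receptor chains that rose numbered 4.

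Of the reactive astrocyte list, 8 of 12 tested members rose and none fell, against 3.07% and 1.73% of all genes, at a median log2 fold change of 2.14. Serpina3n, a secreted protease inhibitor, stood at 0 to 10.8 CPM (median 3.59) against 0 to 86.3 CPM (median 37.0), a log2 fold change of 3.20 ± 0.74 (edgeR adjusted p = 0.0152). Vim, the intermediate filament vimentin, stood at 0 to 21.1 CPM (median 9.66) against 0 to 106 CPM (median 52.5), by 2.52 ± 0.59 (edgeR adjusted p = 0.0160). Cd44 stood at 0 to 62.1 CPM (median 32.4) against 18.5 to 333 CPM (median 145), by 2.20 ± 0.53 (edgeR adjusted p = 0.0200). The groups overlapped in these 3 genes, down to 0 CPM in both groups for Serpina3n and Vim, with 15, 12 and 13 of 18 P301S libraries above all 9 others. Ggta1, Serping1, Aspg, S1pr3 and Osmr were the other members that rose. Of all 37 members, 36 had a UMI, and 34 of these (94.4%) had a higher mean in P301S libraries, against 58.0% of all 22456 genes with a UMI. The class held 22437278 UMIs in P301S and 3182301 in the other libraries, and rare genes are seen more readily in the deeper sums. Of 12 proliferation genes, none past the filter, 10 (83.3%) also had a higher mean in P301S libraries. The part of depth in such counts, here and in the other lists, was not tested. With members of 2 to 4 Gfap UMIs only, 2 of 7 tested reactive genes rose, against 0.429% of all genes in that fit, and the calls for Cd44, Vim, Ggta1 and Il1r1 did not hold. No call of the reactive or the JAK-STAT list held without the 2 groups of 2 libraries, where 21 of 21 tested reactive genes were positive at a median of 2.01.

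Disease-associated astrocyte genes gave 9 higher and none lower of 23 tested (median 0.48), against 3.07% and 1.73% of all genes. Of all 26 members, 18 (69.2%) had a higher mean in P301S libraries, against 58.0% of all genes. Cd9, a tetraspanin, stood at 44.1 to 75.2 CPM (median 53.3) against 56.0 to 136 CPM (median 102), a log2 fold change of 0.77 ± 0.13 (edgeR adjusted p = 0.00174). Ctsb, the lysosomal protease cathepsin B, stood at 19.0 to 52.0 CPM (median 35.5) against 33.2 to 125 CPM (median 76.4), by 1.07 ± 0.22 (edgeR adjusted p = 0.00498), and in each of these 2 genes 16 of 18 P301S libraries lay above all 9 others. The Cd9 call did not hold with 3 or more Gfap UMIs (0.51, edgeR adjusted p = 0.0741), and that of Ctsb did not hold with thinned nuclei (0.67), with 2 to 4 Gfap UMIs only (0.70) or without the 2 groups of 2 libraries (1.03). In the last 2 of these fits 2 of 20 and 1 of 25 tested members of the list rose, against 0.429% and 0.0308% of all genes. The markers Thbs4 and Aqp4 did not pass, as Thbs4 had a log2 difference of 0.49 ± 0.37 (edgeR adjusted p = 0.513) and Aqp4 of 0.06 ± 0.14 (edgeR adjusted p = 0.894). C4b was at 206 to 320 CPM against 178 to 543 CPM and did not pass (edgeR adjusted p = 0.0722).

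Of 66 interferon-stimulated genes, 26 passed the low-count filter, and 15 of these rose and 1 fell, against 3.07% and 1.73% of all genes. Their median log2 fold change was 1.24. Of the 63 members with a UMI, 60 (95.2%) had a higher mean in P301S libraries, against 58.0% of all genes. The limit of depth given for the reactive list holds for this count too. Trim30a, an interferon-induced ubiquitin ligase family member, stood at 0 to 17.9 CPM (median 5.92) without P301S and at 0 to 146 CPM (median 63.9) with it, a log2 fold change of 3.39 ± 0.66 (edgeR adjusted p = 0.00540). Irgm1, an immunity-related GTPase, stood at 0 to 12.7 CPM (median 6.54) against 5.23 to 53.5 CPM (median 31.9), by 2.06 ± 0.37 (edgeR adjusted p = 0.00240). Stat2, which carries the interferon signal to the nucleus, stood at 29.4 to 71.1 CPM (median 45.3) against 53.7 to 188 CPM (median 102), by 1.20 ± 0.22 (edgeR adjusted p = 0.00254). In 14 of 18 P301S libraries for Trim30a, and in 15 for Irgm1 and Stat2, the level lay above all 9 others. Irf9, Parp9, Parp14, Gbp7, Nlrc5, Rnf213, Oasl2, Ddx60, Herc6, Trim30d and Ddx58 were among the other members that rose. Rtp4 went the other way, at 45.8 to 103 CPM (median 54.2) without and 12.4 to 73.2 CPM (median 28.7) with P301S. With members of 2 to 4 Gfap UMIs only, 6 of 20 tested members rose, and with nuclei thinned to 1500 UMIs 3 of 8, against 0.429% and 1.92% of all genes in these fits. Without the 2 groups of 2 libraries 0 of 43 rose, at a median of 1.53, against 0.0308% of all genes. Microglial markers, which share the interferon response, had 7 of 11 genes (63.6%) with a higher mean in P301S libraries, near the 58.0% of all genes. They summed to 66.3 to 198 CPM against 31.7 to 186 CPM, and their part in the interferon values was not tested.

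The promoters of 4 of the interferon-stimulated genes that rose are printed because they share the core of the interferon-stimulated response element, the DNA sequence through which type I interferon is known to act. Each is the 100 bases before the start of transcription in the direction of the gene, from RefSeq on GRCm38.p6, at chr11:48871421-48871520 for Irgm1 and chr7:104465194-104465293 for Trim30a on the minus strand, and at chr3:142530236-142530335 for Gbp7 and chr8:61927987-61928086 for Ddx60 on the plus strand. Capitals mark matches to GAAANNGAAA on either strand, which overlap in Irgm1.
Irgm1: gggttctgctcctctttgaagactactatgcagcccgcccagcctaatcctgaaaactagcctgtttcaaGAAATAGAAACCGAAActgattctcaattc
Trim30a: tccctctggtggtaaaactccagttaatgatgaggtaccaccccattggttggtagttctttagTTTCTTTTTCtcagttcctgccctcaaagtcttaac
Gbp7: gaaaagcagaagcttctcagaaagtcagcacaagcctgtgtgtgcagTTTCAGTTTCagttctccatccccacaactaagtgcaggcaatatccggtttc
Ddx60: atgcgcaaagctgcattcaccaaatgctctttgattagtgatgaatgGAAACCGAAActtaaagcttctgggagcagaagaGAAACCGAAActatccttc
The letters were found in 7 of the 11 called interferon-stimulated genes with a promoter in the table (Irgm1, Trim30a, Trim30d, Gbp7, Ddx58, Ddx60 and Stat2). Over promoters of 300 bases around the start of transcription they were found in 1131 of 32851 (3.44%). Among tested genes they were found in 197 of 5953 (3.31%), in 16 of 180 that rose (8.89%) and in 4 of 96 that fell (4.17%). The 7 genes named are among the 16. A match is a description of the sequence and not a binding site.

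**Figure D4:**
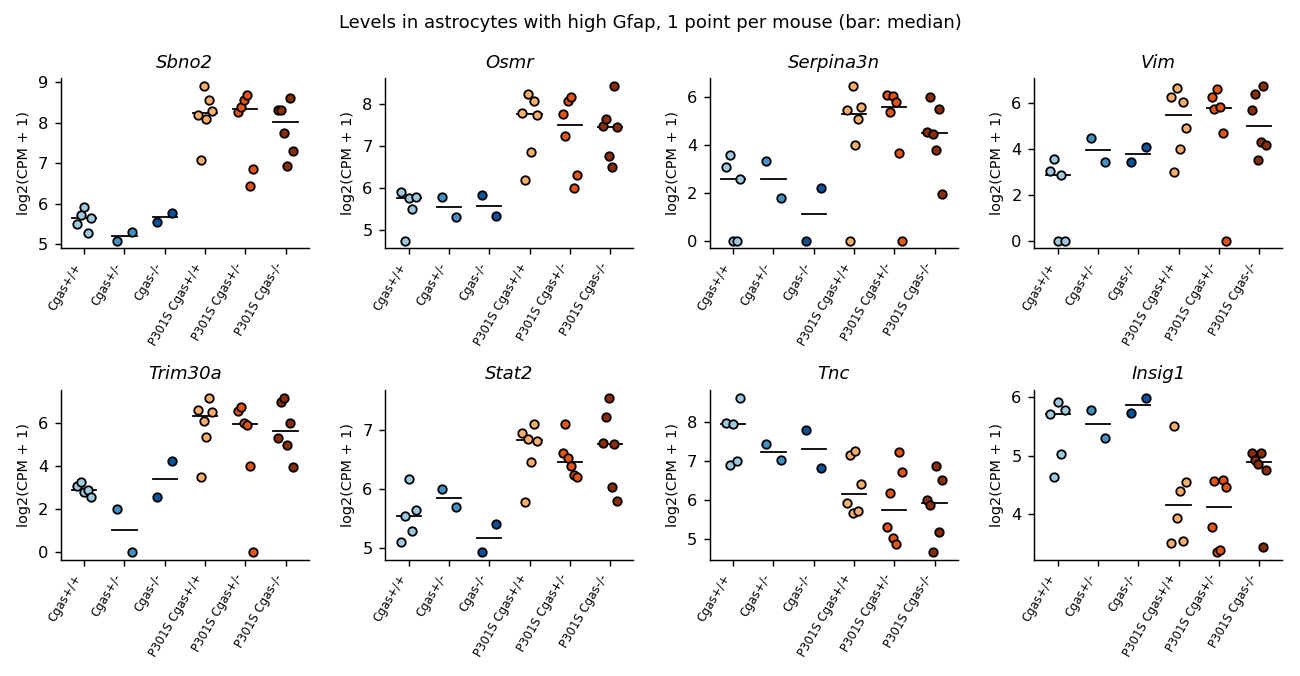
Levels of 8 genes on the log2(CPM + 1) scale (vertical axes) in astrocytes with high Gfap, with 1 point per mouse and a bar at the median of each of the 6 genotype groups. Sbno2 and Osmr have every P301S library above every other library, at 86.0 CPM or more against 59.2 CPM or less for Sbno2, and the 3 P301S groups overlap one another.

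The matrix and adhesion list had 7 members lower and 2 higher of 27 tested (median log2 fold change -0.07), against 1.73% and 3.07% of all genes. Of all 35 members, 16 (45.7%) had a higher mean in P301S libraries, against 58.0% of all genes. Tnc, the matrix glycoprotein tenascin C, stood at 111 to 392 CPM (median 172) without and 24.3 to 152 CPM (median 61.2) with P301S, a log2 fold change of -1.47 ± 0.33 (edgeR adjusted p = 0.0134), and 14 of 18 P301S libraries lay below all 9 others. Adamts9, a matrix protease, stood at 385 to 774 CPM (median 481) against 185 to 451 CPM (median 320), and Gpc6, a glypican that astrocytes secrete to promote synapses, at 960 to 1270.1 CPM (median 1155) against 662 to 1182 CPM (median 787). Both fell, with 12 of 18 libraries below all 9. The Adamts9 call did not hold with 2 to 4 Gfap UMIs only, where 2 of 25 tested members of the list fell, against 0.148% of all genes. None of 29 fell without the 2 groups of 2 libraries, where the list median was -0.20. The other members that fell were Mmp14, Sparcl1, Ncan and Bcan.

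Of the lipid and cholesterol list 3 of 17 tested members fell and 1 rose (median -0.36), against 1.73% and 3.07% of all genes, and 7 of all 23 members (30.4%) had a higher mean in P301S libraries, against 58.0% of all genes. Insig1, a sterol sensor partner, stood at 23.7 to 62.7 CPM (median 52.3) against 9.19 to 44.6 CPM (median 21.6), a log2 fold change of -1.29 ± 0.29 (edgeR adjusted p = 0.00981). Hmgcs1, an early enzyme of cholesterol synthesis, stood at 60.5 to 157 CPM (median 96.8) against 13.96 to 92.0 CPM (median 54.1), by -1.28 ± 0.33 (edgeR adjusted p = 0.0288), and Lcat, an enzyme that esterifies cholesterol, also fell. Abca1, which exports cholesterol to lipoproteins, rose from a median of 217 to 360 CPM (edgeR adjusted p = 0.0271). With members of 2 to 4 Gfap UMIs only, none of these 4 calls held, and the list median was -0.40 over 16 tested members. With software version as a block the calls of Hmgcs1, Lcat and Abca1 did not hold, and that of Insig1 did.

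The homeostatic astrocyte list had 2 of 20 lower (Slc6a11 and Gabrg1) and 1 higher (Lrig1) at a median of -0.28, against 1.73% and 3.07% of all genes, and 6 of its 20 members had a higher mean in P301S libraries, against 58.0% of all genes. With software version as a block none of the 20 was called. Slc6a11 had medians of 319 against 232 CPM (edgeR adjusted p = 0.0364), and its call held in 18 of 36 other fits, that of Gabrg1 in 16 and that of Lrig1 in 24. The transport and coupling list had 1 of 21 lower and 1 higher, Grm5, a metabotropic glutamate receptor, which went from a median of 374 to 692 CPM (edgeR adjusted p = 0.0232). The call of Grm5 held in 31 of 36 other fits, and not with software version as a block. Bdnf, a neurotrophin, stood at 0 to 19.7 CPM (median 3.67) against 3.82 to 91.7 CPM (median 32.8), a log2 fold change of 2.30 ± 0.52 (edgeR adjusted p = 0.0133). The Bdnf call did not hold without the 2 groups of 2 libraries (edgeR adjusted p = 0.190). In its growth factor and neurotrophin list, 13 of 22 members with a UMI (59.1%) had a higher mean in P301S libraries, near the 58.0% of all genes. None of 9 tested neural stem and radial glia genes and none of 6 tested genes of the cGAS-STING pathway passed, where 4.79% of all genes did. Cgas and Sting1 themselves were below the filter, at 13 against 1 and 14 against 2 UMIs in P301S and other libraries, and no proliferation gene passed the filter.

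**Figure D5:**
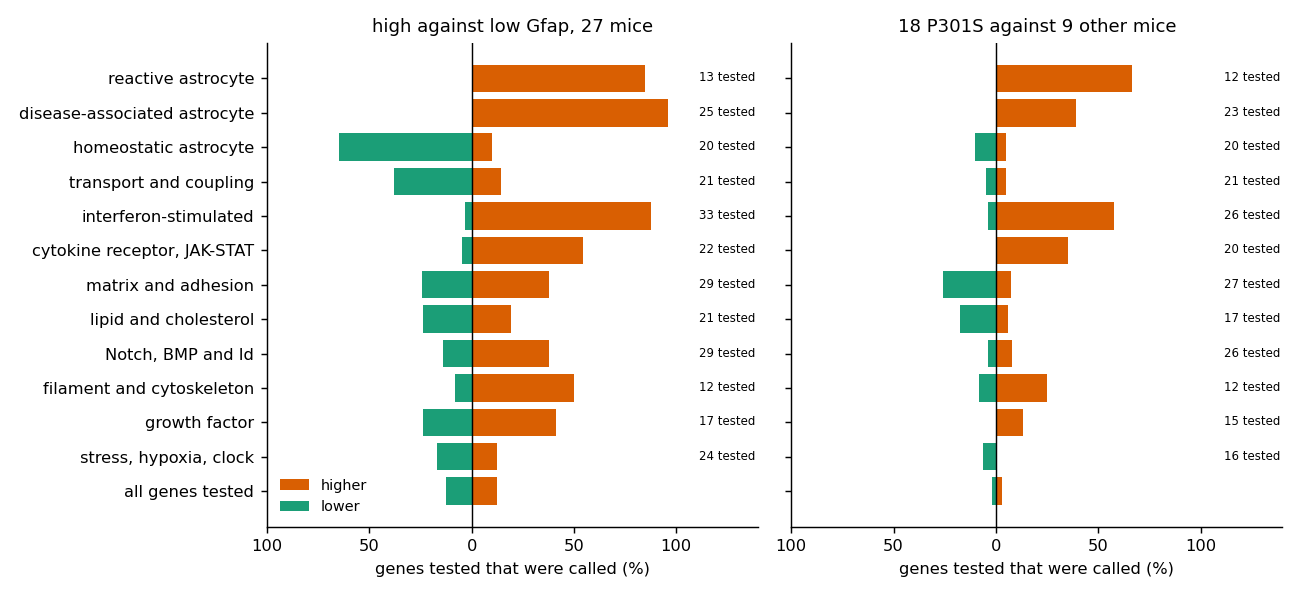
Percent of the tested members of 12 gene lists called higher (bars to the right) and lower (bars to the left), both panels as a description. The left panel compares astrocytes with high and low Gfap of the same mice, and the right panel P301S and other mice within the class. The number tested stands beside each bar and all genes at the bottom. In the right panel interferon-stimulated genes have 15 of 26 higher and matrix genes 7 of 27 lower, against 3.07% and 1.73% of all genes.

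With Cgas intact, P301S Cgas+/+ against Cgas+/+ libraries, 0 of 9751 genes passed the adjusted threshold of edgeR (0% of the background), with 958 at an unadjusted p under 0.05 and a smallest adjusted p of 0.0746, shared by Sbno2, Ptpn12 and Col23a1. DESeq2 called 43 genes (0.441%), edgeR without P301S Cgas+/+ replicate 2 called 38 of 9041 (0.420%), and edgeR with no low-count filter called 356 of 22306 (1.60%). Sbno2 stood at 44.1, 51.8, 59.2, 38.0 and 49.0 CPM in the 5 Cgas+/+ and at 135 to 478 CPM (median 302) in the 6 P301S Cgas+/+ libraries, a log2 difference of 2.75 ± 0.47. Ptpn12, a tyrosine phosphatase, differed by 0.81 ± 0.16 and Col23a1, a transmembrane collagen, by -1.80 ± 0.35. The interferon-stimulated list had a median log2 difference of 1.64 with 41 of 43 tested members positive, and the reactive list 2.20 with 21 of 21 positive, against a median of 0.00 over all genes. A member low in Cgas+/+ libraries could pass the low-count filter through P301S libraries alone, so these signs are a description. Without the filter, 59 of 63 interferon-stimulated and 34 of 36 reactive members with a UMI (93.7% and 94.4%) had a higher mean in P301S Cgas+/+ libraries, against 57.0% of all genes. These counts are a description too, since the class held 8033069 UMIs in P301S Cgas+/+ and 1266427 in Cgas+/+ libraries. Rare genes are seen more readily in the deeper sums, and all genes are not matched to the lists for level. Of 10 proliferation genes with a UMI, none past the filter, 8 (80%) also had a higher mean in P301S Cgas+/+ libraries. Of the microglial markers, 10 of 11 (90.9%) had a higher mean in P301S Cgas+/+ libraries, against 57.0% of all genes. The part of depth and of microglial markers in the interferon and reactive values was not tested. The other 7 of the 10 genes with the smallest p were Samd5, Cnnm2, Usp24, Dst, Map3k14, Acsl6 and Phyhipl, none of which passed. Mapt, the mouse tau gene, had a log2 difference of 0.10 ± 0.10 (edgeR adjusted p = 0.823). These values share the Cgas+/+ and P301S Cgas+/+ libraries with the comparison of all mice.

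Lower Cgas copy number in P301S mice gave no call within the class. For libraries labelled P301S Cgas-/- against P301S Cgas+/+, 0 of 9751 genes passed (0%), with 209 at an unadjusted p under 0.05 and 0 calls by DESeq2. With no low-count filter 31 of 22306 (0.139%) were called. The smallest edgeR adjusted p was 0.758, for Rspo3, which encodes a WNT pathway agonist. Rspo3 averaged 5.07 ± 1.42 CPM against 13.8 ± 2.30 CPM (SD, n = 6 each), a log2 difference of -1.61 ± 0.35 that did not pass. The next smallest p were those of 1110019D14Rik, Cemip, Chn2, Irak1bp1, Sdk1, Unc119b, Paqr7, 6530403H02Rik and Ctsl, and the values of Cgas itself, given above, are too few to compare. Trim30a stood at 10.3 to 144 CPM (median 79.9) in P301S Cgas+/+, 0 to 108 CPM (median 61.9) in P301S Cgas+/- and 14.4 to 146 CPM (median 50.9) in P301S Cgas-/- libraries. Sbno2 had medians of 302, 321 and 264 CPM and Osmr of 214, 182 and 174 CPM in the same order, and the 3 groups overlapped in all of these genes. Interferon-stimulated genes had a median log2 difference of 0.04 for P301S Cgas-/-, with 26 of 43 tested members positive, and 43 of 63 members with a UMI (68.3%) had a higher mean than in P301S Cgas+/+ libraries, against 49.8% of all genes. Microglial markers had 7 of 11 (63.6%) and endothelial and mural markers 9 of 11 (81.8%) genes higher in mean in the same comparison, and their part in the interferon values was not tested. The reactive list leaned lower, with 5 of 21 tested members positive, a median of -0.20, and 13 of 36 members with a UMI (36.1%) higher in mean. Thbs4 was 0.96 ± 0.39 higher on the log2 scale in P301S Cgas-/- libraries, which did not pass (edgeR adjusted p = 1).

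For P301S Cgas+/- against P301S Cgas+/+ libraries 0 of 9751 genes passed (0%), with 238 at an unadjusted p under 0.05 and 0 calls by DESeq2. With no low-count filter 36 of 22306 (0.161%) were called. The 10 genes with the smallest p, none of which passed, were Sdk1, Csmd3, 6530403H02Rik, Greb1l, Snrpn, Clstn2, Shtn1, 9530059O14Rik, Kcnrg and Nucks1. The interferon-stimulated list leaned lower, with 2 of 43 tested members positive, a median log2 difference of -0.31, and 14 of 63 members (22.2%) higher in mean against 49.5% of all genes. Herc6, an interferon-induced ligase, had means of 87.3 against 125 CPM (log2 difference -0.56 ± 0.28, edgeR adjusted p = 1). The reactive list had a median of -0.02 with 9 of 21 tested members positive, and 25 of 36 members with a UMI had a higher mean. Microglial and oligodendrocyte markers leaned the same way, with 1 of 11 and 0 of 8 genes higher in mean in P301S Cgas+/- libraries, and their part in the interferon values was not tested. Both Cgas comparisons share the P301S Cgas+/+ libraries.

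Whether the change with P301S differed between astrocytes with high and with low Gfap was tested within mice, and it did for 3 of 11892 genes (0.0252%; 2 with a higher change in the class, 0.0168%, and 1 with a lower, 0.00841%) in edgeR's quasi-likelihood test, with 1073 at an unadjusted p under 0.05 and 26 calls by DESeq2. Sbno2 rose by 2.70 in the class and had a log2 difference of 0.72 in astrocytes with low Gfap, a difference of 1.97 ± 0.34 (edgeR adjusted p = 0.0103). In astrocytes with low Gfap its level was 25.6 to 37.5 CPM (median 34.8) without P301S and 33.2 to 96.5 CPM (median 47.8) with it. Gcnt2, an enzyme that branches glycan chains, differed by 1.81 ± 0.35 (edgeR adjusted p = 0.0141), with log2 fold changes of 1.87 in the class and 0.10 outside it. Cnnm2, a gene of magnesium handling, differed by -0.55 ± 0.11 (edgeR adjusted p = 0.0141). It stood at 126 to 255 CPM (median 169) without and 73.0 to 157 CPM (median 124) with P301S in the class, and at medians of 156 and 165 CPM in astrocytes with low Gfap. None of these 3 calls held when nuclei were thinned before the classes were set, where 5 of 6966 tested genes were called. The differences were then 1.65 for Sbno2, -0.48 for Cnnm2 and 1.15 for Gcnt2 (edgeR adjusted p = 0.278, 0.397 and 0.603).

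For the gene lists no such difference was called. Interferon-stimulated genes had a median log2 change of 1.03 in astrocytes with low Gfap, where 0 of 34 tested members passed and 3 of all 11837 genes did (0.0253%; 0.00845% higher and 0.0169% lower), and the median of the difference between the classes was 0.43 over 45 members, none called. For the reactive list these medians were 1.08 and 0.77. With Cgas intact alone, 0 of 12412 genes (0%) differed between the classes in their change with P301S by edgeR, with 813 at an unadjusted p under 0.05, and 3 did by DESeq2.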

How the data were processed

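The authors made 10x Chromium 3' v3 libraries of hippocampal nuclei, 1 per mouse, and counted reads of exons and introns on mm10 with Cell Ranger 3.1.0 per the study's methods. The deposited matrices hold raw UMI counts of 31053 genes for called barcodes, and per the file headers 12 libraries carry software version 3.0.2 and 15 carry 3.1.0, which was taken as a batch. The libraries of both versions were compared within each version and with the version as a block. All 12 libraries of version 3.0.2 came from males, so version and sex cannot be told apart fully.

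Counts of member nuclei were summed per mouse and tested with edgeR 4.0.16 (R 4.3.3): TMM, filterByExpr, quasi-likelihood test with sex as covariate, Benjamini-Hochberg adjustment over all tested genes, threshold 0.05. The 3 comparisons of single groups shared a fit over 23 mice, and all P301S against all others used 27 mice with Cgas copies as covariate. DESeq2 1.42.0 was an alternative. A log2 fold change carries its SE. Classes within a mouse were paired by mouse. The 14 genes of the rule were left out of the tests. Shares were compared across mice by two-sided exact permutation tests (SciPy 1.17.1). The planned tests of the Gfap level, the gene of the rule, were left out of the family for adjustment, which then held 8 tests. Scripts were tested on simulated data. Doublets were not removed, and Scrublet (scanpy 1.11.5), which marked 3.78% of the class, was an alternative.

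Nothing in the labels beyond 1 library per mouse says how tissue was handled, so p-values measure the spread between these mice. Intervals and limits of 3 counts cover counting error only. At most 0.570% of barcodes were shared by any library pair, and no matrices were identical. The members and lists were chosen with earlier results of these data known. Named genes were the 4 markers, the 10 called genes with the largest fold each way (or the 10 smallest p), up to 4 members per list with the smallest p, and Cgas, Sting1 and genes beside the transgene. Other genes named, among them Ddx60 and Gbp7 (shown for their promoters), Rnf213, Gabbr2, Unc13c and the remaining called list members, were chosen after their values were seen. Human tau transcripts were not analysed here, and some genes that the rule names are not reported here.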

Additional observations from a re-analysis of the deposited data

Results flagged for a closer look

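In the Cgas+/+ group, the Gfap level over all astrocytes of replicate 2 was 7.63 on the log2(CPM + 1) scale, apart from the next highest mouse at 6.67, with a gap of 0.727 of the range of the group's 5 mice. In this way 84 combinations of a group and a measure were checked, over 21 measures. Chance flags about 1 in 20 of them, so a flag of this kind can be expected by chance.

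The change with P301S differed between astrocytes with high and low Gfap for 3 genes in edgeR's quasi-likelihood test. The difference in log2 change was 1.97 for Sbno2, 1.81 for Gcnt2 and -0.55 for Cnnm2, with adjusted p of 0.0103, 0.0141 and 0.0141. The call was lost for all 3 genes when nuclei were thinned before the classes were set, with differences of 1.65, 1.15 and -0.48 in the same order. Members of P301S libraries also held more Gfap UMIs than other members, and the part of this in the differences was not tested.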

How the results depend on the processing

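No paired analysis was possible because the labels give no replicate numbers that mice of different groups share, and the numbers used here follow the order of the samples. For the share of astrocytes with high Gfap, the P301S Cgas+/+ against Cgas+/+ difference was 11.5 points in 3.0.2 libraries and 16.5 points in 3.1.0 libraries, neither past the threshold, and that of all P301S mice was 13.8 points in 3.1.0 libraries. The P301S Cgas-/- difference reversed to 0.598 points in 3.0.2 libraries. The P301S Cgas+/- difference reversed to 1.06 points with 3 or more Gfap UMIs, to 1.20 points in 3.1.0 libraries, to 2.31, 2.63 and 2.98 points without P301S Cgas+/- replicates 1, 5 and 6, and to 1.39 and 4.01 points without P301S Cgas+/+ replicates 1 and 3. Bdnf reversed to -0.28 between the classes in the 9 libraries without P301S.

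Counts of called genes for P301S Cgas+/+ against Cgas+/+ were 43 of 9751 (0.441%, DESeq2), 356 of 22306 (1.60%, no low-count filter) and 5 of 6685 (0.0748%, 2 groups in the fit). For the Cgas-/- and Cgas+/- comparisons they were 31 and 36 of 22306 with no filter (0.139% and 0.161%). For all P301S they were 988 with no filter, which moved the median of all genes to 0.12, 129 thinned, 223 with the version block, 39 with 2 to 4 Gfap UMIs and 5 without the 2 groups of 2 libraries. The last 2 alternatives and the single-version fits were added after seeing the data. High against low gave 1293 of 5655 (22.9%) thinned and 374 of 9813 (3.81%) in libraries without P301S. The difference between classes gave 3 by DESeq2 with Cgas intact and, over all mice, 26 by DESeq2, 24 with no filter and 5 thinned. The cause of these shifts was not tested.

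Leaving out each mouse in turn gave share differences of 10.5 to 17.0 points for P301S Cgas+/+ against Cgas+/+, -8.26 to -1.84 for P301S Cgas-/-, -4.01 to 4.01 for P301S Cgas+/- and 10.8 to 12.9 for all P301S. Counts ran from 0 to 38, 0 to 0, 0 to 1 and 211 to 589 in that order. Of 1788 values of 54 named genes under alternatives in the comparison of all P301S, 1495 kept direction and call and 293 kept direction only.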
